A study of Mus musculus with 12 samples.

Results

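The genes described here are 48 genes of the endoplasmic reticulum (ER) that fold, check, degrade and export secreted proteins, among them BiP (Hspa5), the translocon, the signal peptidase and the stress sensors Ern1 and Atf6. They were given as a list of symbols, and all 48 were found among the 53715 gene identifiers of the count table and among the 18542 genes expressed highly enough to be tested. The series holds poly(A) RNA libraries of 12 spleens, 4 in each of 3 groups. All the mice were BXSB.Cg-Cd8atm1Mak Il15tm1Imx Yaa (Yaa DKO): they carried targeted alleles of Cd8a and Il15 and the Yaa mutation, a duplication of X-linked genes onto the Y chromosome that drives lupus-like disease. One group was untreated at 6 weeks of age, before symptoms (replicates 1 to 4). The others were symptomatic at 10 weeks and either untreated (replicates 5 to 8) or treated with 2DG, 2-deoxyglucose, a sugar that enters cells like glucose but cannot be used in glycolysis (replicates 9 to 12; 6 g/L, taken up with drinking water). The series has no mice without the Yaa allele or with intact Cd8a and Il15, and the labels do not say whether each sample was a separate mouse, so p-values measure only the spread between these samples.

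Proteins bound for secretion or for the cell surface enter the ER through the Sec61 channel, lose their signal peptide, fold with the help of BiP and other chaperones, receive disulfide bonds and sugars, and leave in coated vesicles, while misfolded chains are drawn back out and degraded. When unfolded proteins pile up, the sensors Ern1 (IRE1), Atf6 and PERK start the unfolded protein response, in which the spliced form of Xbp1 and cleaved Atf6 switch on ER genes. In the spleen, plasma cells, which secrete antibody, are known for a large ER and for high levels of these genes.

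Total counts ran from 15596040 to 22480545 per library at 6 weeks, from 20692818 to 26079979 untreated at 10 weeks and from 21581820 to 23835453 with 2DG, and the 48 genes held between 30 and 66675 counts in a library. Spleen markers were present in all libraries, with mature B cell markers summing to between 3982 and 7660 CPM (counts scaled by library size after TMM normalization), and none of 14 plasma cell markers was at 0. The biological coefficient of variation over all genes was widest in the untreated 10-week libraries, at 0.242 against 0.128 at 6 weeks and 0.114 with 2DG. Replicate 6 had the lowest sum of mature B cell markers, and replicate 8 was the lowest of its group in 34 of the 48 ER genes. Erythroid markers summed to 7762 ± 1524 CPM at 6 weeks, 8949 ± 6512 CPM untreated at 10 weeks and 18094 ± 5111 CPM with 2DG (SD, n = 4), with none of 9 past the test between the groups at 10 weeks, and pancreas markers were highest in replicate 10, at 93.2 CPM in sum, and replicate 2, at 38.4 CPM.

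Promoter sequences of the ER genes are shown first, since the unfolded protein response is known to act through short elements near their starts. The elements were searched on both strands in the 250 bases before and 50 bases after each RefSeq gene start (GRCm38.p6): the ER stress response element ERSE (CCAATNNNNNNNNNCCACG), ERSE-II (ATTGGNCCACG) and the unfolded protein response element UPRE (TGACGTGG). Of the 48 genes, 38 had at least 1 window, 46 windows in all, and 10 had none: Mzb1, Hyou1, Manf, Derl1, Atf6, Sec61a1, Ssr2, Sec11c, Spcs3 and Lman1. ERSE was found in 10 of the 38 genes (26.3%), against 37 of 27025 genes in the whole table (0.137%). ERSE-II was found in 2 of the 38 genes (5.26%) against 12 of all (0.0444%), and UPRE in 3 (7.89%) against 193 (0.714%). Since the elements are known from ER genes, these shares describe the list and are not a test of it. No element of one kind overlapped another kind among the 16 found.

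The 250 bases before the start of Hspa5 and of Creld2 are shown whole because the first is the textbook ER stress promoter and the second belongs to one of the genes that differed most between treated and untreated spleens. Both are on the plus strand, at chr2:34771840-34772089 and chr15:88819396-88819645 of GRCm38.p6, and capitals mark the fixed letters of the ERSE, which in Creld2 lies on the other strand.
Hspa5: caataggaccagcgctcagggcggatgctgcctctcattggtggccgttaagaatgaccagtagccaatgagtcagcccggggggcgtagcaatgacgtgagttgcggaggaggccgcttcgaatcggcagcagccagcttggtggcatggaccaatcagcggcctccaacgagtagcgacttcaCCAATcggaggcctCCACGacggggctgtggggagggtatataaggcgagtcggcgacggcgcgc
Creld2: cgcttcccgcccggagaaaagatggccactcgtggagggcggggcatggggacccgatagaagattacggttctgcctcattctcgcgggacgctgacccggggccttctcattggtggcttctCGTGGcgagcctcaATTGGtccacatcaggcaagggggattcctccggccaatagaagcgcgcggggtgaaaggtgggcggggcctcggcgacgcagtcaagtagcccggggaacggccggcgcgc

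The elements of 9 genes follow with 8 bases on each side, on the strand that carries the motif and with its fixed letters in capitals. They set ERSE genes that were much lower with 2DG beside ERSE genes that did not pass the test, and show each ERSE-II and UPRE. They lie at chr10:86705638-86705656 and chr10:86705533-86705551 (Hsp90b1, 2 copies), chr10:75893242-75893260 (Derl3), chr8:84847075-84847093 (Calr), chr11:50325800-50325818 (Canx), chr8:94386377-94386387 (Herpud1), chr16:22857852-22857862 (Dnajb11), chr16:11134627-11134634 (Txndc11), chr3:123267470-123267477 (Sec24d) and chr13:38528045-38528052 (Txndc5). Hsp90b1, Calr, Canx, Txndc11 and Txndc5 are on the minus strand of the genome and Derl3, Herpud1, Dnajb11 and Sec24d on the plus strand.
Hsp90b1 ERSE, far copy: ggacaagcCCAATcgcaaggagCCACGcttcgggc
Hsp90b1 ERSE, near copy: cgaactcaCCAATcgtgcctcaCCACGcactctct
Derl3 ERSE: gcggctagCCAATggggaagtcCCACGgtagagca
Calr ERSE: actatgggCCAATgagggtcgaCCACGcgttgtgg
Canx ERSE: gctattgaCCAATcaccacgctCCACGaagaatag
Herpud1 ERSE-II: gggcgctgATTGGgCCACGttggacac
Dnajb11 ERSE-II: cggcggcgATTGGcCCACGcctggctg
Txndc11 UPRE: agtgtggcTGACGTGGagagtccg
Sec24d UPRE: cgggcgccTGACGTGGcactagca
Txndc5 UPRE: ctcgccgcTGACGTGGcgctagcc

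The first comparison asked which of these genes differed between 2DG-treated and untreated spleens at 10 weeks. Of the 48 genes, 41 were lower with 2DG and none was higher at an edgeR adjusted p under 0.05; over all genes tested, 5.26% were lower and 2.16% higher. The fitted log2 change was negative in all 48, with a median of -0.71 against 0.01 over all genes tested, and ran from -0.09 (Canx) to -2.03 (Fkbp11). In 43 genes every 2DG library was below every untreated 10-week library, against 7.91% of all genes tested. A log2 change below -1 was found in 12 of the 48, against 3.03% of all genes tested. The 48 genes together took 1.73, 1.35, 1.72 and 1.37% of counts in untreated replicates 5 to 8 and 0.967, 0.926, 0.929 and 1.01% in 2DG replicates 9 to 12, so that the groups did not overlap. In whole spleen, fewer cells of a type and less of an RNA in each cell cannot be told apart. Plasma cell markers moved with the ER genes: 8 of 14 were lower with 2DG and none was higher, with a median log2 change of -0.96, and their sum was 5244 ± 1446 CPM untreated and 2524 ± 513 CPM with 2DG (SD, n = 4). Of the monocyte and macrophage markers 3 of 12 were lower with 2DG (Fcgr1, Ly6c2 and C1qa, median of the 12 -0.19, sums 4293 ± 911 CPM untreated and 3879 ± 133 CPM with 2DG), and of the plasmacytoid dendritic cell markers 1 of 8, Tcf4. No marker of mature B cells, T cells, neutrophils, erythroid cells or stroma passed. Erythroid markers were nonetheless positive in 9 of 9, with a median log2 change of 1.06. At an unadjusted p under 0.05 (edgeR), 5 of the 9 were higher, against 2171 of all 18542 genes tested. Mature B cell markers were positive in 13 of 14, with a median of 0.18. The medians were -0.04 for T cells, -0.23 for neutrophils and -0.06 for stroma. The part of cell numbers in the ER gene values was not tested.

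**Figure D1:**
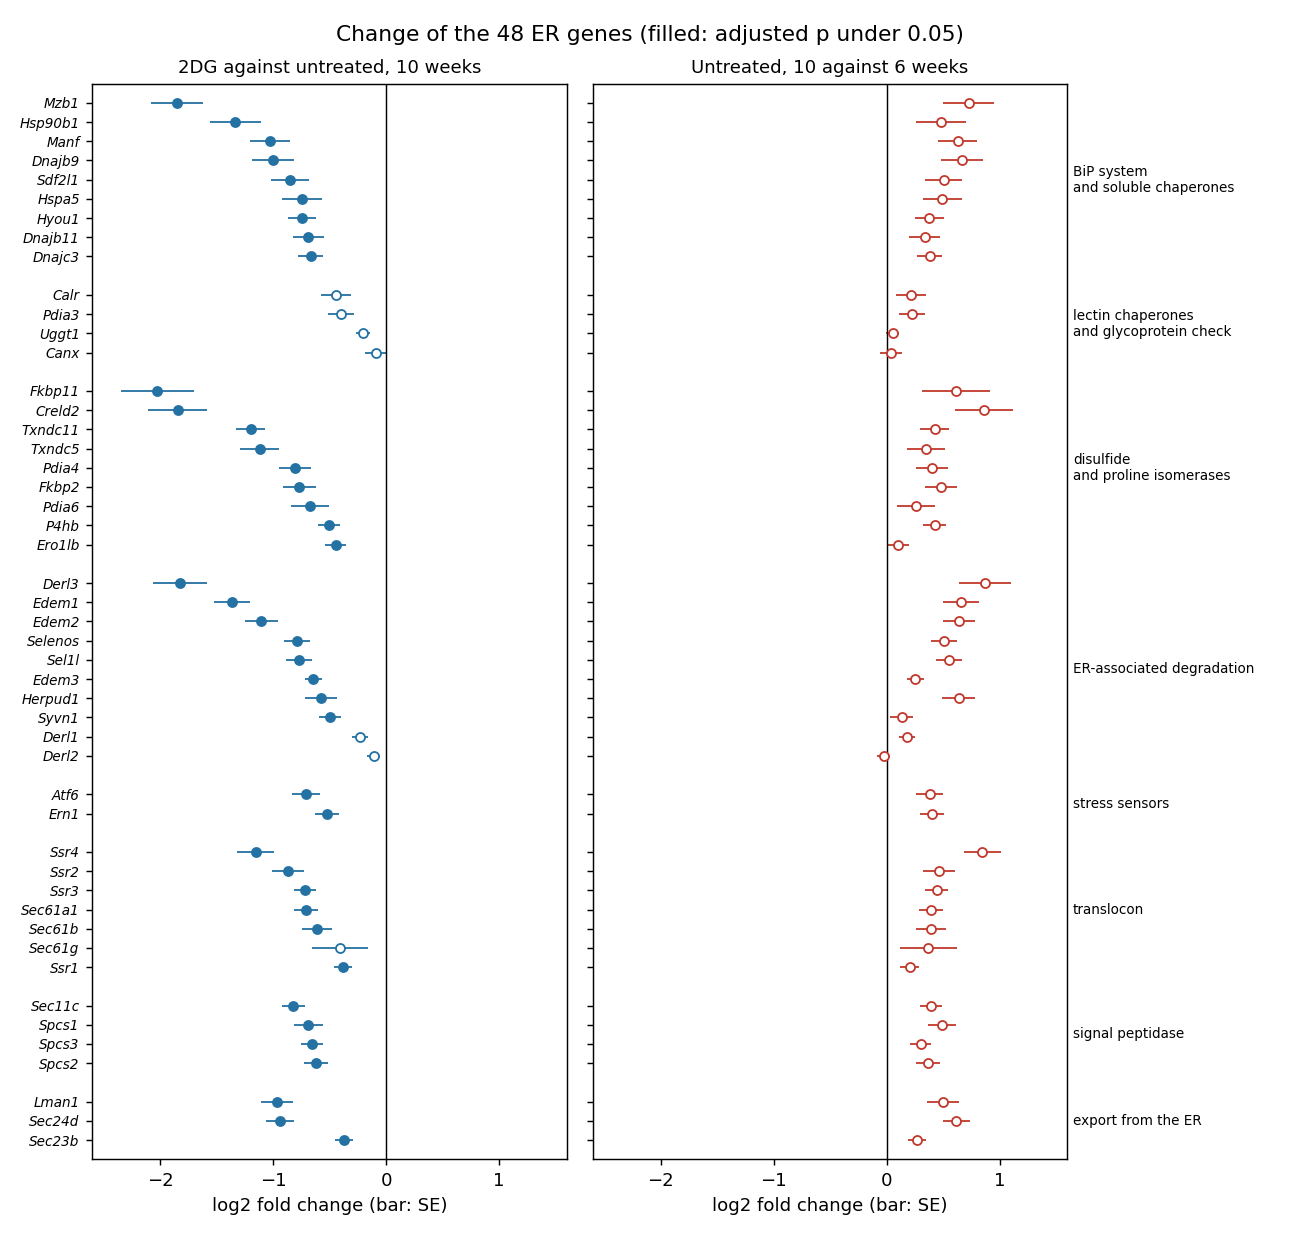
Fitted log2 fold change of each of the 48 ER genes, by role, for 2DG against untreated at 10 weeks (left) and for untreated 10 weeks against 6 weeks (right); points are edgeR estimates, bars are 1 SE, and filled points have an adjusted p under 0.05. On the left all 48 points lie below 0 and 41 are filled, while on the right 47 lie above 0 and none is filled.

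BiP and the soluble chaperones that work with it were all lower with 2DG: 9 of 9 passed, with a median log2 change of -0.85. Of all 48 genes 41 were lower, and of all genes tested 5.26%. Whether any role differed from the rest of the list was not tested. Hspa5 encodes BiP, the main Hsp70 chaperone of the ER and the protein that holds the stress sensors inactive. Its RNA stood at 1340, 1062, 1245 and 797 CPM at 6 weeks, at 1665, 1203, 2062 and 1324 CPM untreated at 10 weeks, and at 923, 948, 911 and 953 CPM with 2DG. The 2DG libraries lay within a narrow band below all untreated 10-week libraries but overlapped the 6-week ones, of which replicate 4 was lowest. The log2 change was -0.74 (SE 0.18, adjusted p = 0.0263), and it missed the threshold in 4 of the 12 fits that each left out 1 library, those without untreated replicate 5 and without 2DG replicate 9, 10 or 11 (highest adjusted p 0.0800).

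Mzb1, an ER cochaperone that assists antibody assembly in B cells and plasma cells, was the chaperone with the largest change. It was counted at 433, 336, 318 and 224 CPM at 6 weeks, at 726, 436, 604 and 403 CPM untreated at 10 weeks and at 174, 136, 123 and 168 CPM with 2DG. All 2DG libraries were below all others of both ages, and the log2 change against untreated 10-week spleens was -1.85 (SE 0.23, adjusted p = 0.00176). Dnajc3 (P58IPK), a J-domain partner of BiP, stood at 301, 288, 359 and 256 CPM untreated at 10 weeks and at 197, 185, 177 and 198 CPM with 2DG, after 255, 227, 255 and 187 CPM at 6 weeks. Its groups at 10 weeks did not overlap, and the log2 change was -0.67 (SE 0.11, adjusted p = 0.00438). Hyou1, a large Hsp70-like chaperone that recharges BiP, gave 376, 268, 404 and 297 CPM untreated at 10 weeks against 197, 203, 195 and 209 CPM with 2DG and 299, 245, 271 and 218 CPM at 6 weeks. Replicates 5 and 7 were the high ones, as for most of these genes, and the log2 change was -0.74 (SE 0.13, adjusted p = 0.00483). The other 5 ran from -0.69 for Dnajb11, another J-domain partner of BiP, to -1.34 for Hsp90b1 (GRP94), the Hsp90 of the ER. Hsp90b1 stood at 2617, 1541, 2750 and 1800 CPM untreated at 10 weeks and at 845, 840, 830 and 933 CPM with 2DG. About 10.3% of its exon bases lie opposite those of a pseudogene, and the library kit does not mark strand.

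**Figure D2:**
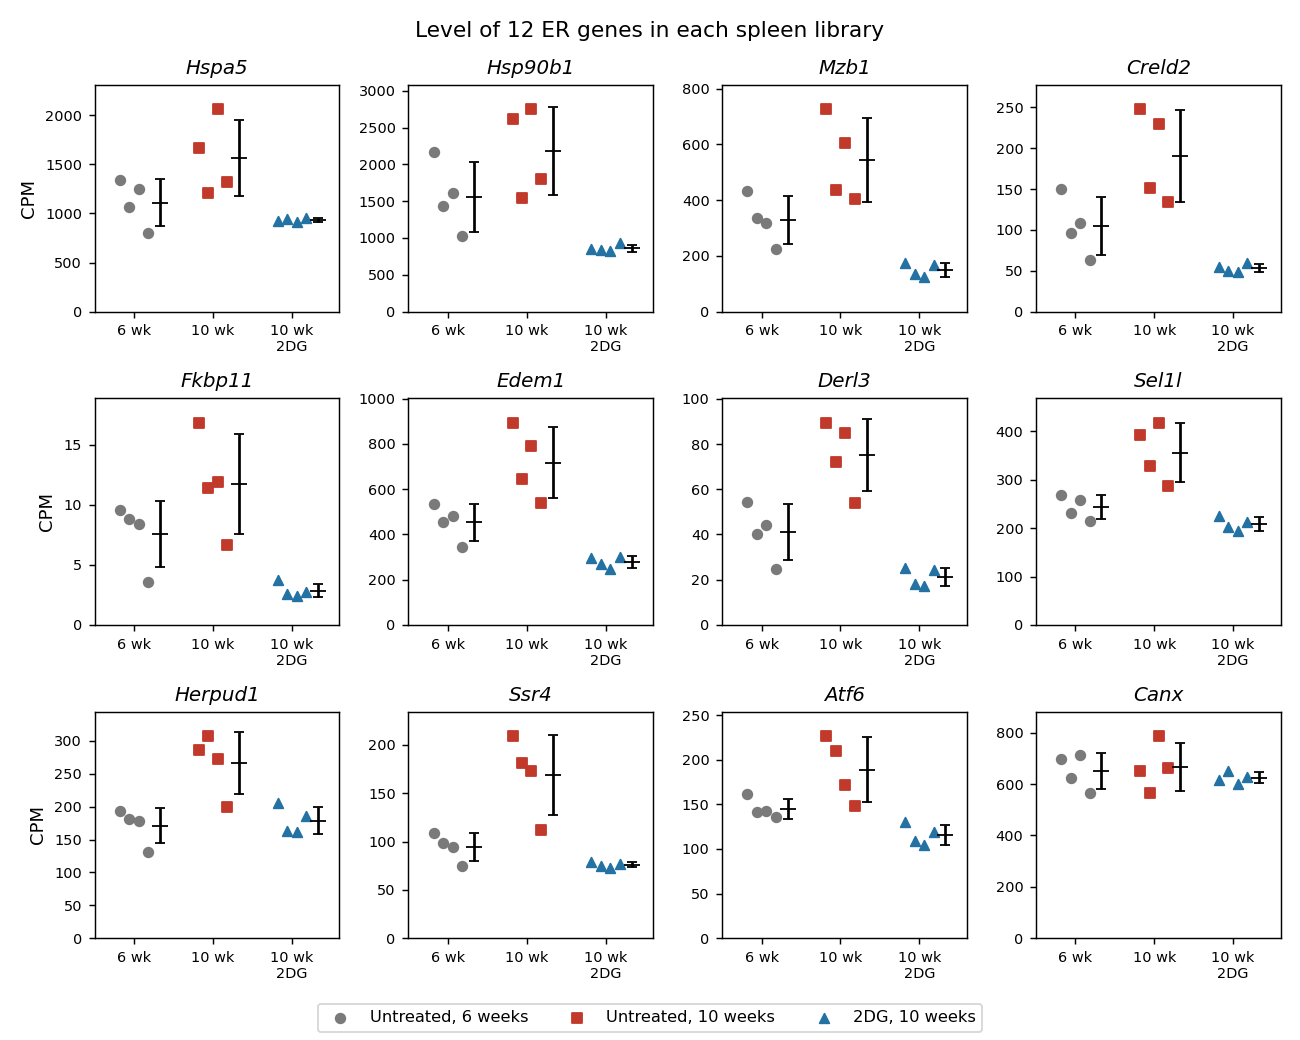
CPM of 12 ER genes in each of the 12 libraries, by group, with the group mean and SD; each panel starts at 0. The 2DG libraries lie below the untreated 10-week ones for Hspa5 and Mzb1 and overlap them for Canx.

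The lectin chaperones and their partners, which hold sugar-bearing proteins until they are folded, gave no call, with 0 of 4 past the test. The fitted log2 change was below 0 in all 4 (median -0.30). At an unadjusted p under 0.05 (edgeR), 3 were lower, against 2378 of all 18542 genes tested. Calr (calreticulin), the soluble lectin chaperone, stood at 1205, 801, 1235 and 974 CPM untreated at 10 weeks, at 753, 787, 782 and 782 CPM with 2DG and at 1078, 849, 944 and 758 CPM at 6 weeks. Its groups at 10 weeks did not overlap, by a small margin at untreated replicate 6, and the log2 change was -0.44 (SE 0.13, adjusted p = 0.0610). Pdia3 (ERp57), the disulfide isomerase that works with the lectins, gave 751, 566, 742 and 593 CPM untreated and 503, 482, 496 and 530 CPM with 2DG, after 668, 528, 601 and 472 CPM at 6 weeks, a log2 change of -0.40 (SE 0.11, adjusted p = 0.0522). Uggt1, the enzyme that re-tags unfolded glycoproteins, gave 234, 198, 221 and 207 CPM untreated, 195, 181, 185 and 185 CPM with 2DG and 217, 201, 207 and 203 CPM at 6 weeks, a log2 change of -0.21 (SE 0.06, adjusted p = 0.0529). Both had groups that did not overlap at 10 weeks. Canx (calnexin), the membrane-bound lectin chaperone, differed least of the 48, with 667 ± 92.3 CPM untreated and 625 ± 21.1 CPM with 2DG (SD, n = 4), overlapping groups and a log2 change of -0.09 (adjusted p = 0.610). Whether this role differed from the others was not tested.

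All 9 disulfide and proline isomerases were lower with 2DG, against 5.26% of all genes tested, with a median log2 change of -0.81. Txndc11, a thioredoxin-domain protein of the ER membrane, had the smallest p among them: 240, 171, 212 and 168 CPM untreated at 10 weeks, 86.7, 83.0, 81.1 and 93.4 CPM with 2DG, and 178, 140, 147 and 124 CPM at 6 weeks. The 2DG libraries were below all others, and the log2 change was -1.20 (SE 0.13, adjusted p = 0.00176). Creld2, an ER stress-induced protein with isomerase-like activity, stood at 248, 151, 230 and 134 CPM untreated, at 54.3, 49.3, 48.8 and 60.1 CPM with 2DG and at 150, 96.5, 109 and 63.2 CPM at 6 weeks. Here too every 2DG library was the lower, by the narrowest margin against replicate 4, and the log2 change was -1.84 (SE 0.26, adjusted p = 0.00324). Txndc5 (ERp46), a disulfide isomerase abundant in plasma cells, gave 830, 537, 530 and 532 CPM untreated, 326, 225, 258 and 308 CPM with 2DG and 562, 509, 435 and 401 CPM at 6 weeks, a log2 change of -1.12 (SE 0.17, adjusted p = 0.00362). Replicate 5 stood well above the other untreated libraries. Fkbp11, a proline isomerase enriched in antibody-secreting cells, had the largest change of the 48 at a low level, 11.7 ± 4.15 CPM untreated and 2.86 ± 0.575 CPM with 2DG (SD, n = 4; log2 change -2.03, SE 0.32, adjusted p = 0.00417). Pdia6, a further disulfide isomerase, had a log2 change of -0.67 (adjusted p = 0.0343) and missed the threshold in 6 of the 12 leave-one-out fits, those without untreated replicate 5 or 7 or any 1 of the 2DG libraries. The smallest change was that of Ero1lb, an oxidase that reloads the isomerases, at -0.45 (adjusted p = 0.0131), which did not pass without 2DG replicate 10 or 11.

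Of the 10 genes for ER-associated degradation, 8 were lower with 2DG, against 5.26% of all genes tested, with a median log2 change of -0.71 over the 10. The mannosidase-like proteins Edem1, Edem2 and Edem3, which mark misfolded glycoproteins for removal, had the smallest p-values. Edem1 stood at 894, 643, 789 and 538 CPM untreated, at 296, 267, 247 and 300 CPM with 2DG and at 533, 453, 481 and 343 CPM at 6 weeks (log2 change -1.37, SE 0.16, adjusted p = 0.00176). Edem2 gave 176, 130, 151 and 103 CPM untreated, 68.4, 59.0, 62.4 and 70.6 CPM with 2DG and 106, 89.4, 85.5 and 77.8 CPM at 6 weeks (log2 change -1.11, SE 0.15, adjusted p = 0.00176). Edem3 gave 177, 167, 168 and 143 CPM untreated, 116, 103, 98.3 and 102 CPM with 2DG and 144, 133, 145 and 127 CPM at 6 weeks (log2 change -0.64, SE 0.08, adjusted p = 0.00176). For all 3 the 2DG libraries were below every library of both untreated groups. Sel1l and Syvn1 form the membrane ubiquitin ligase of the pathway, and Selenos is a selenoprotein that recruits its extraction ATPase. Sel1l and Selenos were lower by similar amounts, with log2 changes of -0.77 (SE 0.11, adjusted p = 0.00243) and -0.79 (SE 0.11, adjusted p = 0.00228), while Syvn1 changed by -0.50 (SE 0.10, adjusted p = 0.0119). The derlins, which form the exit channel, spread widely: Derl3 changed by -1.82 (SE 0.24, adjusted p = 0.00198), whereas Derl1 at -0.23 (adjusted p = 0.0701) and Derl2 at -0.11 (adjusted p = 0.272) did not pass. Herpud1, a stress-induced membrane adaptor of the ligase, passed at -0.58 (SE 0.14, adjusted p = 0.0318) with groups that overlapped, since 2DG replicate 9 at 205 CPM was above untreated replicate 8 at 200.2 CPM. It missed the threshold in 6 of the 12 leave-one-out fits, those without untreated replicate 5, 6 or 7 or without 2DG replicate 10, 11 or 12.

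Both stress sensors on the list were lower with 2DG, against 5.26% of all genes tested. Ern1 (IRE1 alpha), the kinase and endonuclease that splices Xbp1 mRNA, stood at 75.9, 68.9, 68.0 and 62.2 CPM at 6 weeks, at 96.8, 99.3, 95.6 and 72.1 CPM untreated at 10 weeks and at 72.7, 62.4, 59.5 and 57.8 CPM with 2DG. Untreated replicate 8 lay far below the rest of its group and just below 2DG replicate 9, so the groups overlapped at that point; the log2 change was -0.53 (SE 0.11, adjusted p = 0.0118). Atf6, the sensor that is cut in the Golgi to release a transcription factor, stood at 162, 141, 142 and 136 CPM at 6 weeks, at 227, 210, 171 and 148 CPM untreated at 10 weeks and at 130, 109, 105 and 119 CPM with 2DG. Its 2DG libraries were below all untreated ones, and the log2 change was -0.71 (SE 0.12, adjusted p = 0.00514). Gene counts do not separate spliced from unspliced Xbp1, so the activity of the sensors was not measured here.

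In the translocon, the channel complex of the ER membrane, 6 of 7 genes were lower with 2DG (median log2 change -0.71), against 5.26% of all genes tested. Ssr3, a subunit of the translocon-associated TRAP complex, stood at 492, 480, 473 and 377 CPM untreated, at 294, 275, 254 and 284 CPM with 2DG and at 371, 334, 355 and 280 CPM at 6 weeks (log2 change -0.72, SE 0.10, adjusted p = 0.00198). Ssr4, another TRAP subunit, gave 209, 181, 173 and 112 CPM untreated, 79.2, 74.7, 72.9 and 76.5 CPM with 2DG and 109, 98.8, 93.9 and 74.3 CPM at 6 weeks (log2 change -1.16, SE 0.16, adjusted p = 0.00251). Sec61a1, the pore-forming subunit, gave 318, 254, 289 and 217 CPM untreated, 176, 159, 157 and 169 CPM with 2DG and 224, 206, 208 and 183 CPM at 6 weeks (log2 change -0.71, SE 0.10, adjusted p = 0.00243). In these 3 genes no 2DG library reached the lowest untreated 10-week library, which was replicate 8 each time. About 8.16% of the exon bases of Sec61a1 lie opposite an antisense gene, and 12.8% of those of Ssr2, another TRAP subunit, lie opposite a pseudogene. The small subunit Sec61g, at 2.51 ± 0.309 CPM with 2DG and 3.35 ± 1.23 CPM untreated (SD, n = 4), did not pass (adjusted p = 0.344), and 14.8% of its 50-base stretches occur in other genes, as do 17.4% of those of Sec61b. Sec61b (-0.61, adjusted p = 0.0167) did not pass without 2DG replicate 10 or 11, and the TRAP subunit Ssr1 (-0.38, adjusted p = 0.0167) did not pass without untreated replicate 5 or 2DG replicate 11.

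The signal peptidase, which cuts signal peptides from entering chains, was lower in 4 of 4 genes (median log2 change -0.67), against 5.26% of all genes tested. The changes of the 4 genes were close to each other. Its catalytic subunit Sec11c stood at 348, 298, 291 and 241 CPM untreated, at 180, 161, 154 and 171 CPM with 2DG and at 246, 232, 218 and 201 CPM at 6 weeks (log2 change -0.82, SE 0.10, adjusted p = 0.00176). The accessory subunit Spcs3 gave 318, 305, 333 and 262 CPM untreated, 207, 195, 171 and 200 CPM with 2DG and 272, 244, 260 and 211 CPM at 6 weeks (log2 change -0.66, SE 0.09, adjusted p = 0.00227). Spcs2 gave 207, 165, 197 and 160 CPM untreated, 128, 117, 106 and 123 CPM with 2DG and 162, 139, 148 and 118 CPM at 6 weeks (log2 change -0.62, SE 0.11, adjusted p = 0.00566). For Sec11c and Spcs3 every 2DG library was below every other library, while for Spcs2 the 2DG and 6-week libraries overlapped. Spcs1 changed by -0.69 (SE 0.13, adjusted p = 0.00798), but 16.3% of its exon bases lie opposite those of Glt8d1, the largest such share of the 48.

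Export from the ER was lower in 3 of 3 genes (median log2 change -0.94), against 5.26% of all genes tested. Sec24d, a cargo-binding subunit of the COPII coat, stood at 103, 90.1, 102 and 70.1 CPM untreated, at 51.7, 43.3, 46.4 and 49.3 CPM with 2DG and at 62.5, 58.1, 67.3 and 50.2 CPM at 6 weeks (log2 change -0.94, SE 0.12, adjusted p = 0.00176). Lman1 (ERGIC-53), a lectin that carries glycoproteins out of the ER, gave 267, 200.2, 248 and 177 CPM untreated, 126, 114, 101 and 114 CPM with 2DG and 188, 151, 166 and 127 CPM at 6 weeks (log2 change -0.97, SE 0.14, adjusted p = 0.00253). Sec23b, the inner-coat subunit, gave 126, 116, 128 and 105 CPM untreated, 92.3, 87.7, 94.5 and 92.5 CPM with 2DG and 107, 99.5, 103 and 84.3 CPM at 6 weeks (log2 change -0.37, SE 0.08, adjusted p = 0.0183). None of the 3 overlapped between the groups at 10 weeks. The change of Sec23b was the smallest that passed among the 48, and it did not pass without untreated replicate 5 or 2DG replicate 10 or 11.

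Other genes of the same pathways were read from a list of 127, of which 126 were tested: 49 were lower with 2DG and none was higher, with a median log2 change of -0.21. Over all genes tested, 5.26% were lower and 2.16% higher, with a median of 0.01. The list was chosen with earlier results of these data known. In stress signalling 7 of 13 were lower. Xbp1, whose spliced product drives many ER genes, stood at 678, 609, 670 and 430 CPM untreated, 217, 207, 203 and 239 CPM with 2DG and 437, 344, 355 and 246 CPM at 6 weeks (log2 change -1.46, SE 0.17, adjusted p = 0.00176). The ER membrane transcription factor Creb3l2 changed by -1.14 (adjusted p = 0.00176), Wfs1 by -0.81 (adjusted p = 0.00211) and Eif2ak3, which encodes PERK, by -0.26 (adjusted p = 0.0356). Among 12 outputs of the PERK arm none was lower or higher at an adjusted p under 0.05 (edgeR), with a median log2 change of 0.05. At an unadjusted p under 0.05, 1 was lower and 2 were higher, against 2378 lower and 2171 higher over all 18542 genes tested. Atf4, the transcription factor of that arm, stood at 238, 174, 199 and 179 CPM untreated and 215, 206, 200.4 and 171 CPM with 2DG (log2 change 0.01, SE 0.10, adjusted p = 0.980, a sign that turned with the scaling), and Ddit3 (CHOP) at a log2 change of 0.16 (SE 0.10, adjusted p = 0.367). The smallest p of the 12 was that of Atf3 (log2 change -0.72, adjusted p = 0.0855).

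In the remaining lists the counts lower with 2DG were 8 of 26 for folding and redox, 5 of 22 for further degradation genes, 9 of 19 for targeting and translocation and 20 of 34 for vesicles between ER and Golgi. The share over all genes tested was 5.26%. Prdx4, an ER peroxidase, changed by -1.24 (adjusted p = 0.00194), and Erp44, which retrieves escaped ER proteins, by -0.57 (adjusted p = 0.00997). Ube2j1, a ubiquitin-conjugating enzyme of the ER membrane, changed by -0.63 (adjusted p = 0.00176), and the lectin Erlec1 by -0.90 (adjusted p = 0.00209). Tram2, a translocation-associated membrane protein, changed by -1.45 (adjusted p = 0.00176) and Srpr, the receptor for the signal recognition particle, by -0.50 (adjusted p = 0.00380). Sec24a, a COPII subunit related to Sec24d, changed by -0.95, Ergic1 by -0.86 and Kdelr3, a receptor that returns ER proteins from the Golgi, by -1.59 (adjusted p = 0.00176 for each).

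The second comparison asked how the ER genes differed between untreated spleens at 10 and 6 weeks. None of the 48 passed, and 1 of all 18542 genes did, Cd8a, which was lower (0.00539% of genes lower and 0% higher). At an unadjusted p under 0.05, 36 of the 48 were higher and none lower, against 1717 higher and 1462 lower over all genes. The fitted log2 change was positive in 47 of 48, with a median of 0.40 against 0.01 over all genes, and adjusted p ran from 0.0818 to 0.890. In 8 genes, Dnajc3, Dnajb9, Edem1, Sel1l, Herpud1, Ssr3, Ssr4 and Sec24d, all untreated 10-week libraries were above all 6-week ones, against 3.64% of all genes tested. The 5 genes with the smallest p were Sec24d (log2 change 0.62, SE 0.12, adjusted p = 0.0818), Ssr4 (0.85, SE 0.16, adjusted p = 0.0818), Sel1l (0.55, SE 0.11, adjusted p = 0.0911), Selenos (0.51, SE 0.11, adjusted p = 0.0934) and Ssr3 (0.44, SE 0.10, adjusted p = 0.0934). Sel1l stood at 269, 232, 258 and 214 CPM at 6 weeks, at 393, 328, 418 and 286 CPM at 10 weeks and at 226, 202, 194 and 213 CPM with 2DG, so that the untreated 10-week libraries were above all others. Selenos stood at 67.3, 61.1, 62.6 and 54.6 CPM at 6 weeks, at 104, 95.6, 83.6 and 66.5 CPM untreated at 10 weeks and at 51.2, 48.7, 49.2 and 52.9 CPM with 2DG, and replicate 8 fell just short of 6-week replicate 1.

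The count in the age comparison turned on 1 library and on the method. Without untreated 10-week replicate 8, edgeR called 29 of the 48 higher and none lower, with 4.57% of all genes higher and 3.76% lower, and the median log2 change was 0.50. Ssr4 then changed by 1.00 (SE 0.11, adjusted p = 0.00124), Sec24d by 0.73 (adjusted p = 0.00336) and P4hb, the main disulfide isomerase, by 0.52 (adjusted p = 0.00410). DESeq2 on all 12 libraries called 19 of the 48 higher, with 2.59% higher of the 18117 genes to which it gave an adjusted p. Replicate 8 was the lowest of its group in 34 of the 48 genes, so leaving it out raises the group mean of most of them. Leaving it out also changes the estimate of spread, and the part of either in the count was not tested. No marker of another cell type passed with age. Plasma cell markers had a median log2 change of 0.51 (6 of 14 higher at an unadjusted p under 0.05), with sums of 3500 ± 670 CPM at 6 weeks and 5244 ± 1446 CPM at 10 weeks (SD, n = 4). Monocyte and macrophage markers had a median of 0.44 (5 of 12 higher at an unadjusted p under 0.05). Over all 18542 genes tested, 1717 were higher at an unadjusted p under 0.05 (edgeR). Mature B cell markers were negative in 14 of 14, with a median of -0.32. The part of these cells in the ER gene values was not tested.

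**Figure D3:**
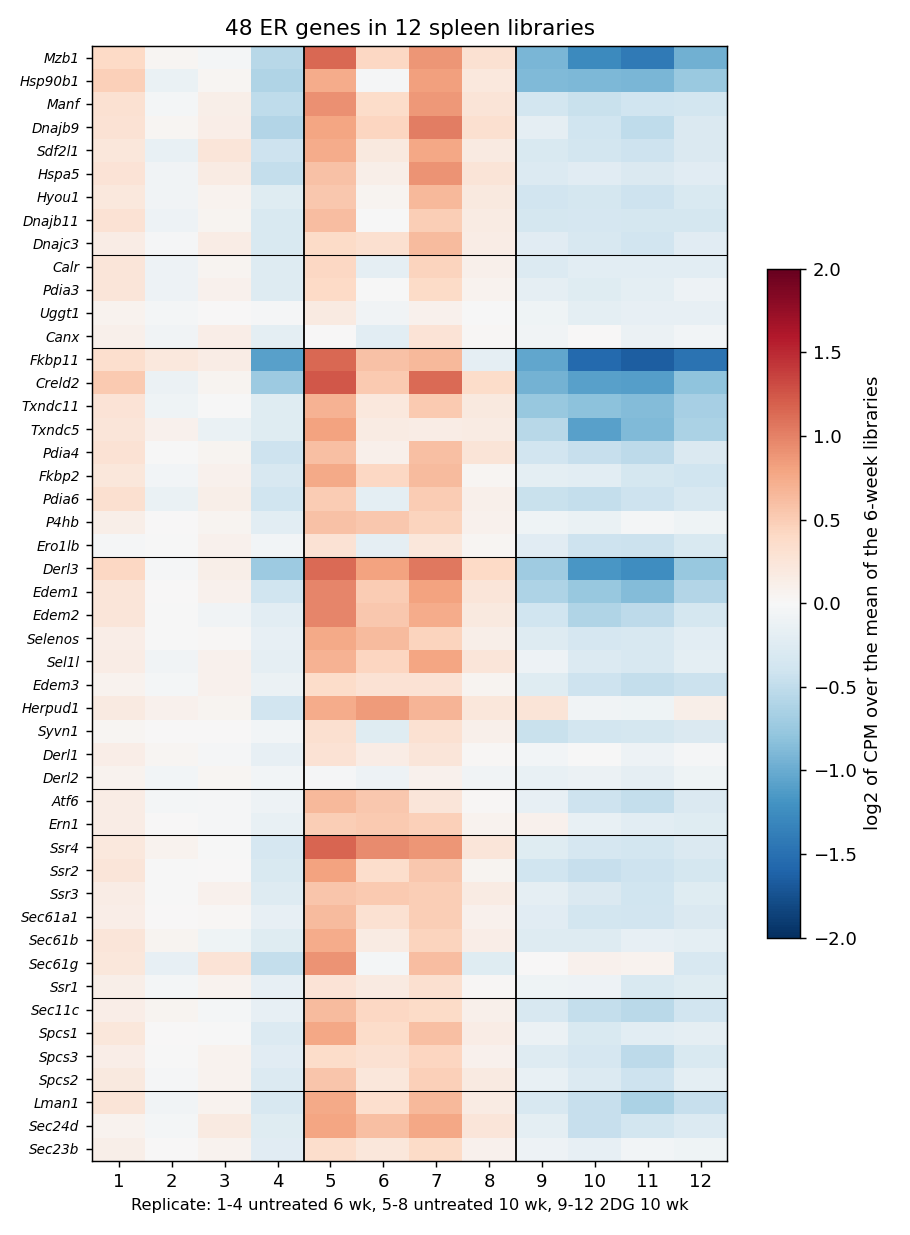
Level of each of the 48 ER genes in each library, as the log2 of its CPM over its mean CPM in the 6-week libraries, with genes in rows by role and libraries in columns by replicate number. Replicates 5 and 7 are high in most rows, replicates 6 and 8 less so, replicate 4 is the lowest of the 6-week libraries in 47 rows, and replicates 9 to 12 are low.

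The third pair of groups, 2DG at 10 weeks against untreated at 6 weeks, shares its libraries with both comparisons above. Here 1 of the 48 genes passed, Txndc11, lower with 2DG (log2 change -0.78, SE 0.13, adjusted p = 0.0378), with 0.0917% of all genes lower and 0.0378% higher. The call of Txndc11 was lost in 7 of the 12 leave-one-out fits, those without any 1 of the 6-week libraries or without 2DG replicate 9, 10 or 11 (highest adjusted p 0.184). The log2 change was negative in 47 genes, with a median of -0.33 against -0.0023 over all genes, and the exception was Herpud1 at 0.06 (adjusted p = 0.880). No cell type marker passed here. Plasma cell markers were negative in 14 of 14, with a median log2 change of -0.51. Of these, 10 were lower at an unadjusted p under 0.05 (edgeR), against 1509 of all 18542 genes tested. All 9 erythroid markers tested were higher in every 2DG library than in every 6-week one, with a median log2 change of 1.24. That held for 1480 of the 18542 genes. The part of these cell types in the ER gene values was not tested. In 21 genes every 2DG library was below every 6-week library, against 7.69% of all genes tested, among them Mzb1, Creld2, Txndc5, the Edem genes, Atf6 and Sec61a1. Limma voom with library weights called 21 of the 48 lower, with 3.81% of all genes lower, and edgeR on those groups alone called 18, with 3.11% lower. DESeq2 called 14, with 2.25% lower of the 16001 genes to which it gave an adjusted p. The order of group means, 2DG lowest and untreated 10 weeks highest, held in 46 of the 48 genes and in 20.6% of all genes tested.

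**Figure D4:**
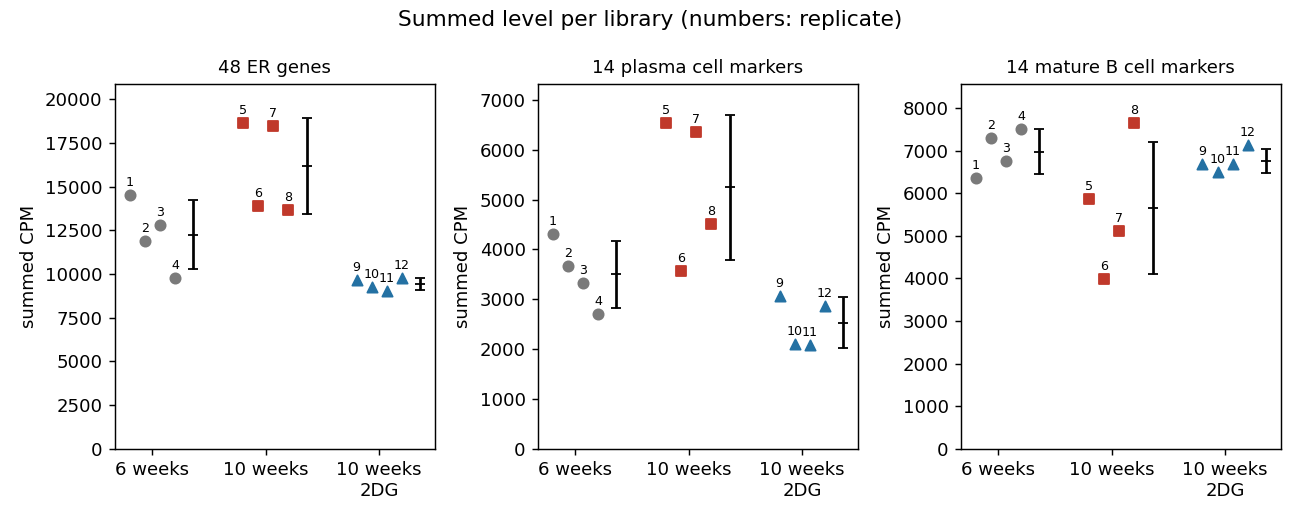
Summed CPM of the 48 ER genes, 14 plasma cell markers and 14 mature B cell markers in each of the 12 libraries, by group, with mean and SD; numbers above points are replicate numbers and axes start at 0. Summed ER genes reached 18662 and 18477 CPM in untreated replicates 5 and 7, 13906 and 13672 CPM in replicates 6 and 8, and between 9013 and 9751 CPM with 2DG.

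Per kilobase of exon, the order of levels among the 48 was led by Hsp90b1 at 540 ± 148 CPM per kilobase, Mzb1 at 446 ± 124, Hspa5 at 370 ± 91.2 and Calr at 366 ± 71.2 in untreated 10-week spleens (SD, n = 4). These neighbours lay within each other's spread. Pdia4 followed at 271 ± 45.9 and Pdia3 at 211 ± 31.0 CPM per kilobase, and Fkbp11 and Sec61g were last at 4.33 ± 1.54 and 1.36 ± 0.500. With 2DG the order at the top was different: Calr led at 269 ± 5.44 CPM per kilobase, ahead of Hspa5 at 221 ± 4.76, Hsp90b1 at 214 ± 11.8, Pdia3 at 160 ± 6.41, Pdia4 at 154 ± 10.9, Canx at 133 ± 4.50 and Mzb1 at 124 ± 20.2. Every 2DG value of Calr was then above every value of the others, while Hspa5 and Hsp90b1 were within their spread of each other.

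The median coefficient of variation of the 48 genes was 14.3% at 6 weeks, 18.6% untreated at 10 weeks and 6.23% with 2DG, against 7.72, 12.8 and 7.20% over the 13371 genes in the same range of levels and 10.3, 16.6 and 9.66% over all genes tested. The median spread of the ER genes was thus above that of genes in this range in both untreated groups and slightly below it with 2DG. The range runs from the lowest to the highest of the 48, and genes were not matched by level within it. The part of level in these differences was not tested. At 6 weeks replicate 1 was the highest in 42 of the 48 genes and replicate 4 the lowest in 47, and untreated at 10 weeks replicate 5 was the highest in 31 and replicate 7 in 15. With 2DG replicate 11 was the lowest in 29 genes, and the highest was replicate 9 in 23 and replicate 12 in 17. Plasma cell marker sums had the same extremes at 6 weeks, 4312 CPM in replicate 1 and 2705 CPM in replicate 4, and reached 6545, 3571, 6357 and 4504 CPM in untreated replicates 5 to 8. Dnajb11 was the steadiest gene with 2DG, at 131, 132, 132 and 131 CPM.

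The elements shown above were set beside the changes with 2DG. Of the 10 genes with an ERSE, 8 were lower, with a median log2 change of -0.67, and of the 23 genes with a window and none of the elements 19 were lower, with a median of -0.69. Both counts stand beside 41 of all 48 genes and 5.26% of all genes tested. The ERSE genes ran from Creld2 (-1.84) and Derl3 (-1.82) to Calr (-0.44) and Canx (-0.09), neither of which passed the test. The ERSE of Hspa5 began 65 bases before the start, that of Creld2 126 and that of Canx 145. The genes with an ERSE-II, Herpud1 and Dnajb11, changed by -0.58 and -0.69, and the 3 with a UPRE by -0.94 (Sec24d), -1.12 (Txndc5) and -1.20 (Txndc11). Fkbp11 (-2.03), with the largest change, had none of these letters in its windows, and nothing about factors follows from that. No test was made between these sets.

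**Figure D5:**
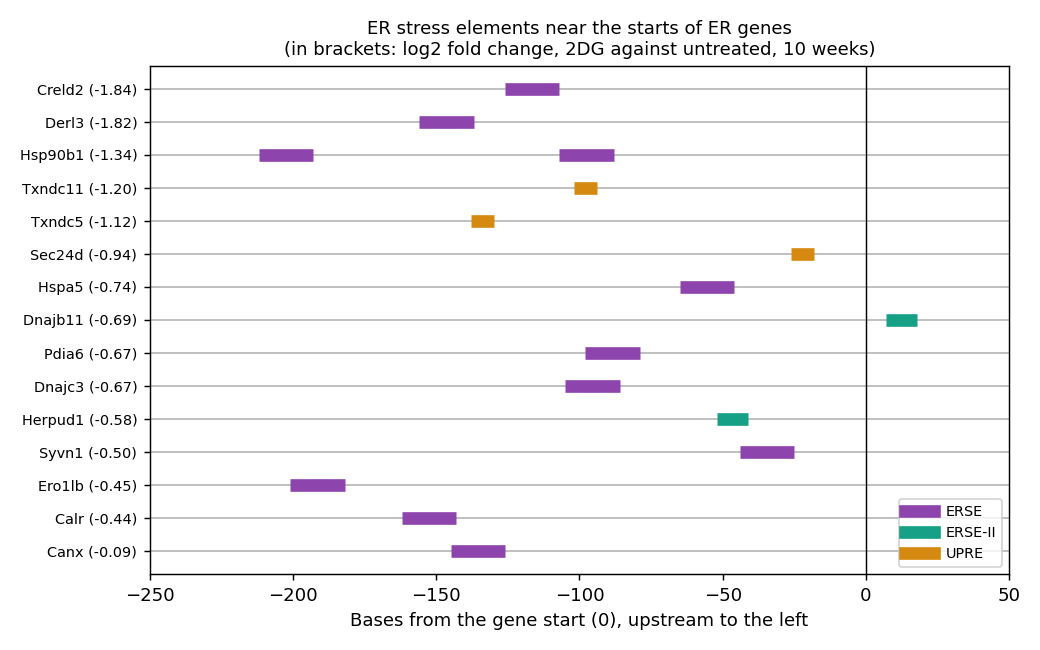
Position of each ERSE, ERSE-II and UPRE match relative to the gene start in 15 ER genes, in bases with upstream to the left, ordered by the log2 fold change of 2DG against untreated at 10 weeks given in brackets. Hsp90b1 has 2 ERSE copies, the match in Dnajb11 lies after the start, and genes with an ERSE are found from the top of the order (Creld2, -1.84) to its foot (Canx, -0.09).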

How the data were processed

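Per the labels' protocols, spleen RNA from 12 samples was made into poly(A)-selected libraries with TruSeq chemistry that keeps no strand information. The authors deposited whole-number counts per gene; the submitters' processing notes name Bowtie2 2.2.0, RSEM 1.2.12 and GRCm38 without their roles. No source used here says how reads shared by near-identical genes were counted: 5 of the 48 genes had over 5% of their 50-base stretches in another gene, and 13 had exon bases opposite another gene. Groups came from sample titles and columns were matched by sample description. Identifiers were given symbols from GENCODE M21 (53620 of 53715). No pair of libraries of a group agreed within sampling noise (chi-square per gene 10.5 to 85.2).

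Tests were edgeR 4.0.16 in R 4.3.3 (TMM, filterByExpr, robust quasi-likelihood over all 12 libraries in 1 fit), with Benjamini-Hochberg adjustment over all 18542 genes tested and a threshold of 0.05. The fit was also run on simulated counts that had the same spread per gene in all groups. That run does not cover groups of unequal spread such as these. Log2 fold changes are fitted values, CPM are after TMM, and SE is the size of the change over the root of the F statistic. Alternatives were DESeq2 1.42.0 on the 36604 genes with any count, median-of-ratios size factors, no filter, a filter of 1 CPM in 4 libraries, the compared groups alone, removal of immunoglobulin genes, limma 3.58.1 voom with quality weights, each library left out, and, chosen after seeing the data, untreated replicates 6 and 8 left out together.

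The members, roles, pathway and marker lists were chosen with earlier results of these data known, so counts over them are descriptions and no test was made of a list. Any of the 48 genes may be named. Values in every library are given for Hspa5, Ern1, Atf6, up to 3 genes per role with the smallest p, the 5 with the smallest p with age, and further genes (such as Hsp90b1 and Dnajb11) chosen after their values were seen. Of the other lists, up to 3 past the threshold with the smallest p are named, with Xbp1, Eif2ak3, Atf4 and Ddit3. Promoter windows are from RefSeq (GRCm38.p6), and Ero1lb was matched by its RefSeq symbol. Protein ends, also planned, are not analysed here. Dixon's ratio, at its 95% critical value, marked single libraries far from their group.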

Additional observations from a re-analysis of the deposited data

Results flagged for a closer look

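In 5 of the 144 combinations of gene and group, 1 library stood far from the other 3 of its group (Dixon's ratio above its critical value); chance alone marks about 1 group in 20. Hsp90b1 was highest in 2DG replicate 12, at 932.9 CPM. Calr was lowest in 2DG replicate 9, at 752.7 CPM, with the other 2DG libraries between 782 and 787 CPM. Txndc5 was highest in untreated 10-week replicate 5, at 829.7 CPM, with the others between 530 and 537 CPM. Untreated 10-week replicate 8 was lowest for Ern1, at 72.1 CPM, and for Ssr3, at 376.6 CPM. The part of library quality or of cell make-up in these values was not tested.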

How the results depend on the processing

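The count of ER genes lower with 2DG at 10 weeks (41) stayed within 1.5 times under every alternative: 45 with DESeq2, 38 without a filter or with the compared groups alone, 44 with voom, 34 to 44 with 1 library left out, and 46 without untreated replicates 6 and 8; none was called higher. Over all genes the count (1376) was 2304 with DESeq2, 581 with the compared groups alone, 514 to 2209 with 1 library left out (725 without untreated replicate 5, 2209 without 8, 515 and 514 without 2DG replicates 10 and 11) and 3193 without replicates 6 and 8. With age, 0 ER genes became 19 with DESeq2, 5 without a filter, 0 to 29 with 1 library left out (29 without untreated replicate 8) and 42 without replicates 6 and 8, which hold low ER gene levels, so that leaving them out raises the contrast by construction; all genes (1) became 682, 102, 0 to 1563 and 2303, and 0 with the compared groups alone. For 2DG against 6 weeks, 1 ER gene became 14 with DESeq2, 2 without a filter, 18 with the compared groups alone, 21 with voom, 0 to 5 with 1 library left out (5 and 4 without untreated replicates 6 and 7) and 16 without replicates 6 and 8; all genes (24) became 902, 98, 1367, 1644, 1 to 354 (354 without untreated replicate 7) and 758. The cause was not tested. The sign of Atf4 (0.01) turned with median-of-ratios size factors (-0.00467), DESeq2 (-0.00255), a filter of 1 CPM in 4 libraries (-0.00101), 4 of the fits with 1 library left out (-0.0526 to 0.110 over all 12) and without replicates 6 and 8 (-0.146). No paired analysis was possible because replicate numbers run from 1 to 12 and no groups share one. There were 4 samples per group, and the spread at 10 weeks was wide. Whether a change as small as that fitted for Canx could be detected was not tested.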

Other observations

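Outside the 48 genes, 27 genes had an ERSE in the same promoter window, and 10 of them were tested, with a median log2 change of 0.13. None was lower with 2DG and 1 was higher, against 5.26% lower and 2.16% higher over all genes tested. Counts over 10 genes do not set them apart from those shares. The higher one was Adcy3, an adenylate cyclase named after its value was seen (log2 change 0.45, edgeR adjusted p = 0.0223). Alg12, a mannosyltransferase of glycan assembly, shares the very element of Creld2 (chr15:88819520-88819538), which lies between the starts of both genes. Its log2 change with 2DG was 0.13 (adjusted p = 0.440), where that of Creld2 was -1.84.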
